A study of Oryza sativa with 4 samples.

Results

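The loci described here are those of the rice coleoptile whose transcript was still detected at day 2, at a level at least 32-fold lower than in the control. They were chosen from the deposited tables by the size of that difference. A transcript found only in the control has no such ratio and cannot be among them. The study reports genes expressed only in the control, so the loci described here are not the full set of the steepest falls. A transcript was kept when it carried a rice locus ID, had a level of at least 1 FPKM (read fragments scaled to the length of the transcript and to the size of the library) in the control and above 0 at day 2, and had a log2 ratio of day 2 over control of -5 or less. Of 3439 listed transcripts, 198 had no locus ID and the others belonged to 3141 loci. The rule kept 108 transcripts of 106 loci, and 11 of these loci, from a few gene neighbourhoods and single genes set aside, were left out, so that 97 transcripts of 95 loci remained. Since the ratio chose the loci, the ratios, and the control and day 2 levels they are made of, are given as a description with no test.

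All samples were coleoptiles of the wild type rice variety PB1 (Pusa Basmati 1), from seeds grown under water for 7 days. The control group held 2 libraries of coleoptiles taken 7 days after germination, and the day 2 group held 2 libraries taken 9 days after germination, when the submerged seedlings had been moved to air. The labels give submergence as the treatment of all 4 libraries. Age, exposure to air and the progress of senescence changed together between the groups and cannot be told apart. The deposited tables hold 1 value per transcript and group, pooled over its 2 libraries, so that no spread between libraries, no fragment count and no p-value could be given for any locus. The tables were also made from transcripts selected for a change: the smallest absolute log2 ratio among the 3166 transcripts above 0 in both groups was 2.00. In whole coleoptiles, fewer cells of a type and less RNA per cell cannot be told apart.

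The coleoptile encloses and protects the young shoot of a grass as it emerges. In rice it elongates under water, where oxygen is scarce, by expansion of existing cells, which needs loosening and synthesis of cell wall, supply of lipids and fermentation of sugars. When the seedling reaches air the sheath stops growing, splits and senesces, a process in which macromolecules are broken down and their carbon and nitrogen are exported to the growing leaf and root.

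The 95 loci covered a wide range of control levels. The lowest control level was 3.98 FPKM, the median was 97.8 FPKM and the highest was 5611 FPKM. At day 2 the same loci had a lowest level of 0.0815 FPKM, a median of 1.18 FPKM and a highest level of 51.8 FPKM. The log2 ratios ran from -9.05 to -5.01 with a median of -6.10, which is a median of 68.4-fold lower and at most 530.3-fold lower. With the kept transcripts of a locus summed, a log2 ratio of -6 or less was held by 50 loci, of -7 or less by 23 and of -8 or less by 6. At day 2, 42 of the loci were below 1 FPKM and 24 below 0.5 FPKM, while 9 stayed at 10 FPKM or more. The number of fragments behind these low day 2 levels is not known, so their ratios are the least certain. The rule took 108 of the 2072 transcripts that had an ID and a control level of 1 FPKM or more, which is 5.21%, a share that the rule itself sets.

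**Figure D1:**
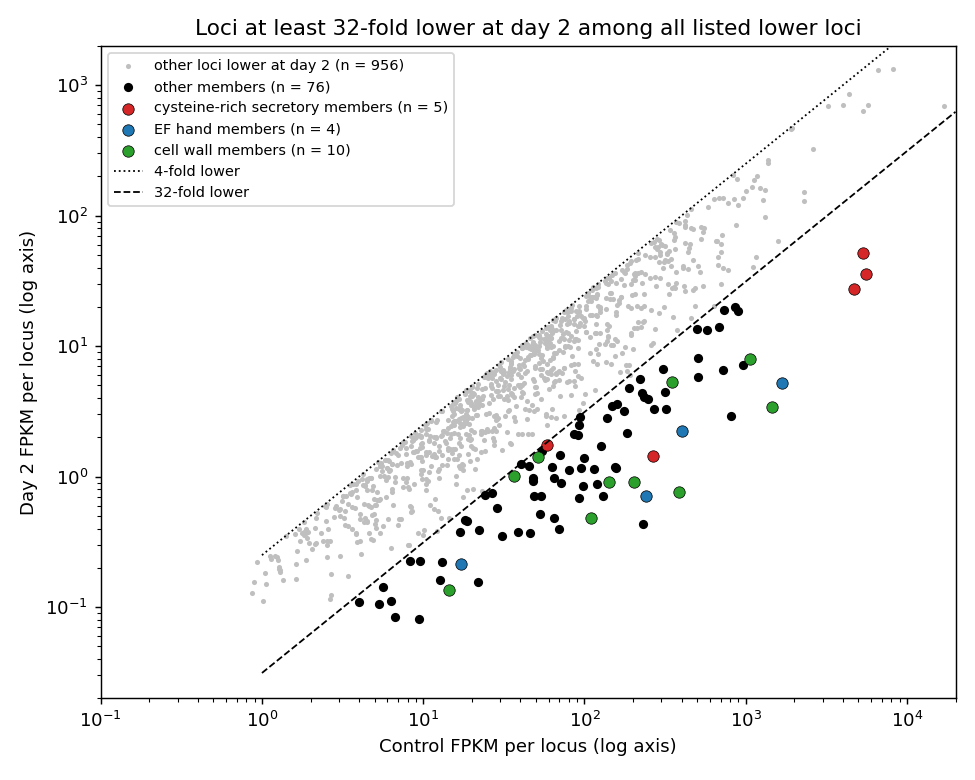
Control level (x axis, FPKM, log axis) against day 2 level (y axis, FPKM, log axis) of the listed loci that were lower at day 2, 1 point per locus and each value pooled over 2 libraries: the 956 other lower loci in grey, the 95 loci in black, with the 5 cysteine-rich secretory loci in red, the 4 EF hand loci in blue and the 10 cell wall loci in green. The lines mark 4-fold and 32-fold lower levels; the 95 loci lie on or below the lower line and spread from 3.98 to 5611 FPKM in the control.

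The 95 loci were on the whole abundant transcripts of the submerged coleoptile. A control level of 100 FPKM or more was found for 46 of them (48.4%), against 250 (26.2%) of the 956 other lower loci, counted without the neighbourhoods left out. The median control level of those other loci was 34.6 FPKM and their median log2 ratio was -2.70. Only 8 of the 95 loci were below 10 FPKM in the control. Control levels are part of the ratio that chose the loci, so this difference is not independent of the rule. Together the 95 loci held 13.4% of the FPKM summed over all listed transcripts in the control (35999 of 269393 FPKM) and 0.259% at day 2 (375.2 of 144639 FPKM). The 3 most abundant loci made 43.4% of the control sum of the 95 and the 10 most abundant made 64.8%.

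Among the 95 loci, the largest ratio belonged to LOC_Os04g50880, described as a member of the phosphoribulokinase and uridine kinase family, which went from 231.7 FPKM to 0.437 FPKM (log2 ratio -9.05). Next was LOC_Os01g20980, a pectinesterase, an enzyme that removes methyl groups from the pectin of the wall, which went from 387.8 FPKM to 0.765 FPKM (log2 ratio -8.99). LOC_Os08g40690, described as a glycosyl hydrolase and placed in a biotic stress category by the study's annotation, went from 1447 FPKM to 3.40 FPKM (log2 ratio -8.73). These 3 loci sit on different chromosomes and have different descriptions. LOC_Os09g31025 and LOC_Os09g31040, a pair of EF hand calcium-binding proteins, had log2 ratios of -8.43 and -8.33. LOC_Os10g26700, described only by its likeness to the yeast gene YGL010w, went from 812.6 FPKM to 2.89 FPKM (log2 ratio -8.13). The 10 largest ratios were completed by the peroxidases LOC_Os03g25300 (log2 ratio -7.83) and LOC_Os03g25280 (log2 ratio -7.82), the cysteine-rich secretory protein LOC_Os08g04230 (log2 ratio -7.55) and the helix-loop-helix protein LOC_Os11g39000 (log2 ratio -7.52). Of these 10 loci, 5 belonged to clusters of neighbouring loci that were also among the 95.

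The limit of -5 cut through a continuous range of ratios. The 5 loci just inside it were LOC_Os01g66160, a pentatricopeptide protein (log2 ratio -5.12), LOC_Os09g37490 (-5.07), LOC_Os03g16960 (-5.06), LOC_Os09g37480 (-5.04) and LOC_Os04g40410 (-5.01). Just outside it lay LOC_Os06g37690, an S-locus-like receptor kinase that went from 12.2 FPKM to 0.386 FPKM (log2 ratio -4.98), and LOC_Os01g16140, with no description, which went from 190.4 FPKM to 6.04 FPKM (log2 ratio -4.98). They were followed by the family 17 glycosyl hydrolase LOC_Os01g51570 (log2 ratio -4.96), the cytochrome P450 LOC_Os07g48330 (-4.92) and the transferase LOC_Os06g39390 (-4.92). The control levels of the loci just outside ran from 12.2 FPKM to 632.1 FPKM, within the range of the 95.

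Position was not used by the rule. Members within 50 kb of each other were taken as a cluster, with positions as the deposited tables give them on the IRGSP-1.0 genome. There were 10 such clusters with 25 of the 95 loci (26.3%). In 1 of them, 2 locus IDs shared the same start and end. The other 9, with 23 loci, had separate coordinates. These 9 were 6 pairs, 1 run of 3 loci and 2 runs of 4 loci. In 5 of the 10 clusters the loci were described alike. Another lower locus within 50 kb was found for 54 of the 95 loci (56.8%), against 359 (37.6%) of the 956 other lower loci. Loci left out could count as such neighbours on both sides. Of the 70 loci outside clusters, 29 (41.4%) had such a neighbour. Those 70 had no neighbour among the 95 by definition, so their share is not counted like that of the 956. The difference in shares was not tested. Neighbouring copies of a gene can be near-identical, and reads that match several copies could be divided among them in ways that the deposited values do not show, so the level of each single copy is less certain than the sum over a cluster.

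The most abundant cluster was a run of 4 cysteine-rich repeat secretory protein genes over 13.5 kb (chromosome 8, 2054221 to 2067718). Proteins of this family carry the DUF26 domain and are secreted. LOC_Os08g04210 went from 4666 FPKM to 27.4 FPKM (log2 ratio -7.41). LOC_Os08g04230 went from 266.8 FPKM to 1.43 FPKM (log2 ratio -7.55). These neighbours thus differed widely in level and little in ratio. LOC_Os08g04240 went from 5352 FPKM to 51.8 FPKM (log2 ratio -6.69). LOC_Os08g04250 went from 5611 FPKM to 35.6 FPKM (log2 ratio -7.30), the highest control level of the 95. The control levels of the 4 loci spanned 21.0-fold, while their log2 ratios lay within 0.86 of each other. The rule holds all ratios at -5 or less but sets only a low bound on control levels. Ratios that are closer than levels are thus partly set by the rule, here and in the other clusters. Their summed level went from 15895 FPKM to 116.4 FPKM, and 3 of the 4 were the 3 most abundant of all 95 loci. The nearest other listed locus, LOC_Os08g04130, was also lower (41.2 FPKM to 5.01 FPKM, log2 ratio -3.04).

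The study listed predicted miRNA targets among its changed transcripts, and 3 of the 95 loci (3.16%) were in those lists, against 263 of the 3141 listed loci (8.37%). The mature sequences of the 3 miRNAs are shown because each was paired with 1 of these loci as its predicted target. They are printed 5′ to 3′, with the seed, bases 2 to 8, in capitals.
osa-miR396e-5p, listed against LOC_Os08g04210: uCCACAGGcuuucuugaacug
osa-miR167d-5p, listed against LOC_Os09g37890: uGAAGCUGccagcaugaucuga
miRNA_49, listed against LOC_Os02g27500: cCAACGUUugauuguccguc
The 3 seeds differ. The first target lies in the chromosome 8 cluster, where the other 3 loci were lower as well without being listed as targets. The other targets were among the least abundant of the 95 loci: LOC_Os09g37890, a serine/threonine kinase receptor, went from 3.98 FPKM to 0.109 FPKM (log2 ratio -5.19), and LOC_Os02g27500, a leucine rich repeat protein, went from 6.30 FPKM to 0.110 FPKM (log2 ratio -5.83). The study reports miRNA_49 as lower in senescing coleoptiles, which is the direction of its listed target LOC_Os02g27500 as well. The levels of the miRNAs were not analysed here, and whether they act on these loci was not tested.

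A cluster of 4 EF hand genes lay within 31.5 kb (chromosome 9, 18641599 to 18673103). EF hand proteins bind calcium and many of them act as calcium sensors. LOC_Os09g30506 went from 17.1 FPKM to 0.215 FPKM (log2 ratio -6.31). LOC_Os09g31000 went from 403.3 FPKM to 2.23 FPKM (log2 ratio -7.50). LOC_Os09g31025 went from 242.4 FPKM to 0.705 FPKM (log2 ratio -8.43). LOC_Os09g31040, the most abundant of the 4, went from 1671 FPKM to 5.18 FPKM (log2 ratio -8.33). The control levels spanned 97.5-fold and the log2 ratios spanned 2.11, so this cluster was less even than that on chromosome 8. A further EF hand gene 22.8 kb away, LOC_Os09g30490, went from 364.4 FPKM to 68.8 FPKM (log2 ratio -2.40), a much smaller difference for a gene of similar control level. Between the 4 loci and within 50 kb of them lay 7 other listed loci, of which 4 were lower and 3 were higher. The higher ones had log2 ratios of 4.40 for LOC_Os09g30486, 3.10 for LOC_Os09g31120 and 2.90 for LOC_Os09g31130.

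Another cluster held 3 auxin-responsive genes within 4.36 kb (chromosome 9, 21602928 to 21607286). SAUR genes are among the first to be switched on by auxin and many of their proteins promote cell expansion. LOC_Os09g37480, named OsSAUR53, went from 94.2 FPKM to 2.86 FPKM (log2 ratio -5.04). LOC_Os09g37490, named OsSAUR54, went from 24.2 FPKM to 0.721 FPKM (log2 ratio -5.07). LOC_Os09g37495, described as an auxin responsive protein, went from 18.1 FPKM to 0.464 FPKM (log2 ratio -5.29). All 3 lay close to the limit of -5, and their ratios differed by only 0.25 on the log2 scale. Other SAUR genes of the same stretch were lower too but outside the limit, with log2 ratios of -3.78 for LOC_Os09g37500, -3.28 for LOC_Os09g37410 and -2.85 for LOC_Os09g37350. The nearest of them, LOC_Os09g37500, began 1.98 kb after the end of LOC_Os09g37495.

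**Figure D2:**
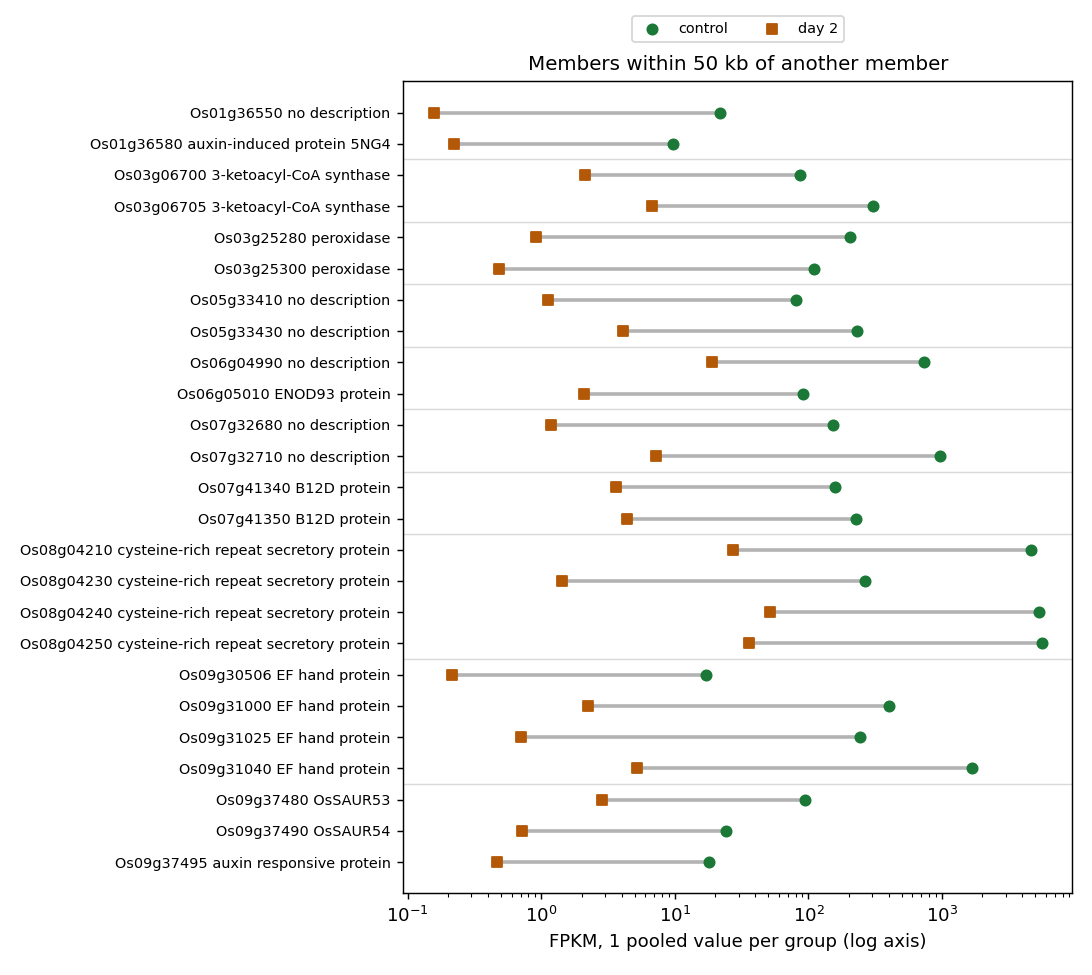
Control (green circles) and day 2 (orange squares) levels in FPKM on a log axis for the 25 loci in the 10 clusters, 1 row per locus, each value pooled over 2 libraries; thin lines part the clusters and each bar joins the values of a locus. Bars of 1 cluster are of similar length in most clusters, in part because the rule bounds the ratios. They are least so in the EF hand cluster and the chromosome 1 pair, where the log2 ratios spanned 2.11 and 1.71.

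A pair of peroxidase genes lay within 10.8 kb (chromosome 3, 14436126 to 14446878). Class III peroxidases are secreted enzymes that cross-link wall polymers or form reactive oxygen species. LOC_Os03g25280 went from 204.2 FPKM to 0.905 FPKM (log2 ratio -7.82) and LOC_Os03g25300 from 110.0 FPKM to 0.483 FPKM (log2 ratio -7.83). The ratios of the pair were nearly the same. The next listed peroxidase, LOC_Os03g25330, began 22.8 kb after the pair and was higher at day 2, at 54.4 FPKM against 7.69 FPKM (log2 ratio 2.82). A further peroxidase beyond it, LOC_Os03g25370, was again lower (log2 ratio -3.73). Direction thus differed among the listed peroxidases of this stretch.

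Several other pairs were found. LOC_Os07g41340 and LOC_Os07g41350, adjacent genes of the B12D family within 3.38 kb (chromosome 7, 24765681 to 24769065), went from 159.1 FPKM to 3.59 FPKM (log2 ratio -5.47) and from 227.8 FPKM to 4.37 FPKM (log2 ratio -5.70). B12D genes were first described in cereal grains. On chromosome 6, LOC_Os06g05010, an ENOD93 protein, went from 91.7 FPKM to 2.08 FPKM (log2 ratio -5.46), and LOC_Os06g04990, with no description, from 729.0 FPKM to 19.1 FPKM (log2 ratio -5.26). The listed loci LOC_Os06g05000 and LOC_Os06g05020, on either side of LOC_Os06g05010, were lower as well, with log2 ratios of -4.67 and -4.12, so that 4 loci of this stretch were lower together. Further off within 50 kb, LOC_Os06g04940 was lower (log2 ratio -4.80), while LOC_Os06g04920 was higher (0.452 FPKM to 17.6 FPKM, log2 ratio 5.28). Early nodulin genes were named for their activity in young legume root nodules, and relatives occur in cereals.

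The locus IDs LOC_Os03g06700 and LOC_Os03g06705 shared the same coordinates (chromosome 3, 3402624 to 3407198) and were both described as 3-ketoacyl-CoA synthase. They went from 86.7 FPKM to 2.14 FPKM (log2 ratio -5.34) and from 306.0 FPKM to 6.73 FPKM (log2 ratio -5.51), and they may be transcripts of a single gene. On chromosome 1, LOC_Os01g36580, described as the auxin-induced protein 5NG4, went from 9.60 FPKM to 0.224 FPKM (log2 ratio -5.43), and its neighbour LOC_Os01g36550, with no description, from 21.9 FPKM to 0.156 FPKM (log2 ratio -7.13). The remaining clusters held only loci with no description. LOC_Os07g32680 and LOC_Os07g32710 went from 153.9 FPKM to 1.19 FPKM (log2 ratio -7.01) and from 964.5 FPKM to 7.17 FPKM (log2 ratio -7.07). LOC_Os05g33410 and LOC_Os05g33430 went from 80.1 FPKM to 1.12 FPKM (log2 ratio -6.16) and from 232.5 FPKM to 4.10 FPKM (log2 ratio -5.83). In each of these 2 pairs the ratios were closer than the control levels, which the rule in part sets.

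Around the 10 clusters lay 22 other listed loci within 50 kb, of which 13 were lower and 9 were higher at day 2. Loci listed at 0 in the control, LOC_Os07g41370 near the B12D pair and LOC_Os09g37540 near the SAUR genes, are counted as higher. Not every listed locus around the clusters was thus lower. Loci that changed less than 4-fold are not in the tables and could not be counted.

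**Figure D3:**
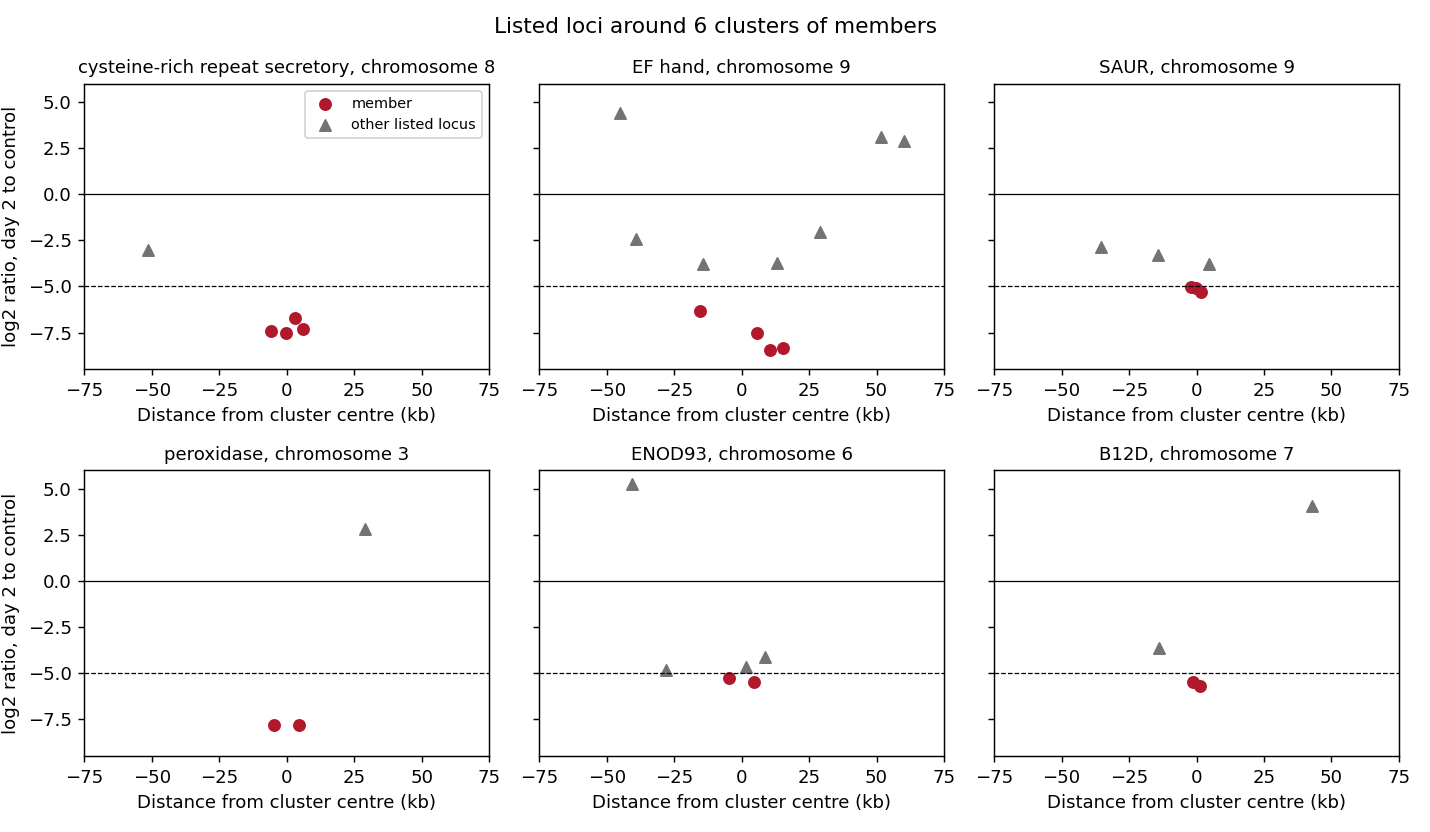
Log2 ratio of day 2 over control (y axis) against the distance in kb from the centre of 6 of the clusters (x axis), with clustered loci as red circles and other listed loci within 50 kb as grey triangles; loci listed at 0 in the control have no ratio and are not drawn. The clustered loci lie below the dashed line at -5, and higher listed loci lie around the EF hand, peroxidase, ENOD93 and B12D clusters.

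Of the 95 loci, 65 had a description and 30 had none in the tables used here. Of the 65, 6 were described only as expressed proteins and had no RefSeq name. LOC_Os09g28580 was described in the same way but is grouped here by its RefSeq name, KRP6. Families were counted among the described listed loci, of which there were 2598, by words in their descriptions. Over all 3141 listed loci, 1070 were lower at day 2 by the sum of their transcripts, which is 34.1%. Counts of lower loci in a family are to be read beside that share. Counts of family loci among the 95 are to be read beside 65 of the 2598 described loci, or 95 of all 3141.

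Genes grouped here by description or RefSeq name as acting in the cell wall were 10 loci. Of these, 5 were in a cell wall category of the study's annotation. Their group had control levels from 14.5 FPKM to 1447 FPKM and log2 ratios from -8.99 to -5.18. The highest control level was that of LOC_Os08g40690, described only as a glycosyl hydrolase, so its place in the group is less certain. Besides LOC_Os01g20980, the pectinesterase LOC_Os01g13320 went from 51.5 FPKM to 1.41 FPKM (log2 ratio -5.19). A second transcript of that locus was outside the limit, at 52.9 FPKM and 2.53 FPKM (log2 ratio -4.39), and the 95 loci are therefore 94 when transcripts are first summed. Of 12 listed pectinesterases, 9 were lower, 1 of them a locus left out that also met the limit, and 3 were higher. The pectinesterase LOC_Os01g21034, 24.1 kb from LOC_Os01g20980, had a higher control level than its neighbour and a smaller ratio (482.1 FPKM to 27.7 FPKM, log2 ratio -4.12). LOC_Os04g51340, a pectin acetylesterase, which removes acetyl groups from pectin, had 2 transcripts that both met the rule, at 581.5 FPKM and 482.9 FPKM in the control and 4.59 FPKM and 3.34 FPKM at day 2. Their sum went from 1064 FPKM to 7.93 FPKM (log2 ratio -7.07). The other 2 listed pectin acetylesterases were higher at day 2. LOC_Os05g01444, a polygalacturonase inhibitor, a protein that blocks an enzyme cutting the pectin backbone, went from 36.6 FPKM to 1.01 FPKM (log2 ratio -5.18).

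Other loci of the wall group act on cross-linking, adhesion and lignin. The peroxidase LOC_Os06g35480 went from 348.1 FPKM to 5.29 FPKM (log2 ratio -6.04), and with the chromosome 3 pair it made 3 of 42 listed peroxidases, 19 lower and 23 higher. The peroxidases that were lower but not among the 95 had log2 ratios from -4.83 to -2.04. LOC_Os03g57490, with a fasciclin domain, found in wall-associated adhesion proteins, went from 141.4 FPKM to 0.911 FPKM (log2 ratio -7.28). LOC_Os02g56460, given the name CCR1 by RefSeq, went from 14.5 FPKM to 0.134 FPKM (log2 ratio -6.76). Cinnamoyl-CoA reductase, for which CCR stands, makes precursors of lignin. Of 48 listed glycosyl hydrolases, a broad family of carbohydrate-cutting enzymes, 23 were lower and 25 higher. Of the 23, LOC_Os08g40690 was among the 95 and 9 belonged to a neighbourhood left out, where 6 also had log2 ratios of -5 or less. Its neighbour LOC_Os08g40680, 2.92 kb away, was also a glycosyl hydrolase and also lower (364.6 FPKM to 28.0 FPKM, log2 ratio -3.70). Expansins, which loosen walls during growth, had 15 listed loci, 5 lower and 10 higher, and none among the 95.

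The cysteine-rich secretory family had a member outside the chromosome 8 cluster. LOC_Os03g16960 went from 58.6 FPKM to 1.76 FPKM (log2 ratio -5.06), and its neighbour LOC_Os03g16950, 2.67 kb away, from 311.5 FPKM to 19.97 FPKM (log2 ratio -3.96). LOC_Os07g35740, a receptor kinase with DUF26 domains, went from 5.31 FPKM to 0.106 FPKM (log2 ratio -5.65). Its listed neighbours of the same family, LOC_Os07g35750 and LOC_Os07g35810, had log2 ratios of -2.64 and -2.47. In all, 21 listed loci were described as cysteine-rich repeat secretory or DUF26 proteins, 16 lower and 5 higher, and 6 were among the 95. Of 10 listed EF hand loci, 6 were lower and 4 higher, and 4 were among the 95, all of them in the chromosome 9 cluster.

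Lipid genes made a group of 6 loci with control levels from 8.27 FPKM to 503.8 FPKM. 3-Ketoacyl-CoA synthases lengthen fatty acids to the very long chains of waxes and membranes. All 5 listed loci of this family were lower, 3 of them among the 95 if the shared pair is counted as 2, with LOC_Os03g26530 going from 8.27 FPKM to 0.224 FPKM (log2 ratio -5.21). The other 2 had log2 ratios of -3.17 and -2.32. LOC_Os01g65830, an acyl-desaturase, which puts double bonds into fatty acids, went from 502.6 FPKM to 8.18 FPKM (log2 ratio -5.94), while 5 of the 7 listed desaturases were higher at day 2. LOC_Os03g13030, described as a lecithin cholesterol acyltransferase, an enzyme moving acyl groups from phospholipid, went from 52.9 FPKM to 0.515 FPKM (log2 ratio -6.68). LOC_Os01g65380, a patellin, went from 503.8 FPKM to 5.75 FPKM (log2 ratio -6.45). Patellins bind membrane lipids and in Arabidopsis take part in building the cell plate.

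Among genes of carbon and redox metabolism were enzymes that make phosphoenolpyruvate. Listed loci of other enzymes that make it were not searched for. LOC_Os03g31750, pyruvate, phosphate dikinase, which makes phosphoenolpyruvate from pyruvate, went from 719.1 FPKM to 6.58 FPKM (log2 ratio -6.77). LOC_Os10g13700, phosphoenolpyruvate carboxykinase, which makes it from oxaloacetate, went from 92.1 FPKM to 0.680 FPKM (log2 ratio -7.08). Each was the single listed locus described so. LOC_Os02g56680, a dehydrogenase, went from 46.1 FPKM to 0.370 FPKM (log2 ratio -6.96), with a dehydrogenase 20.4 kb away, LOC_Os02g56700, at a log2 ratio of -4.76. Of 18 listed loci described as dehydrogenases, LOC_Os02g56460 among them, 4 were lower and 14 were higher. The UDP-glucosyltransferase LOC_Os01g49240, an enzyme that attaches glucose to small molecules, went from 26.5 FPKM to 0.751 FPKM (log2 ratio -5.14). The glutaredoxin LOC_Os12g35330, named OsGrx_C12, went from 98.7 FPKM to 1.39 FPKM (log2 ratio -6.15). Glutaredoxins reduce disulphide bonds with glutathione, and all 3 listed ones were lower, the adjacent LOC_Os12g35340 with a log2 ratio of -2.07.

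A family tied to oxygen had 3 loci among the 95. They were described as 2-aminoethanethiol dioxygenases, and in Arabidopsis enzymes of this type, the plant cysteine oxidases, use oxygen to mark transcription factors of the low-oxygen response for breakdown. LOC_Os03g45250 went from 97.8 FPKM to 0.851 FPKM (log2 ratio -6.84), LOC_Os08g37470 from 31.0 FPKM to 0.352 FPKM (log2 ratio -6.46) and LOC_Os09g29480 from 17.0 FPKM to 0.375 FPKM (log2 ratio -5.50). The family had 6 listed loci, 4 lower and 2 higher. LOC_Os01g09030 was lower outside the limit (36.4 FPKM to 4.07 FPKM, log2 ratio -3.16). LOC_Os03g45210, 16.7 kb from LOC_Os03g45250, was higher at day 2 (0.204 FPKM to 4.67 FPKM, log2 ratio 4.51), and LOC_Os09g14700 was listed at 0 in the control. The 2 directions thus met within this family and on the same stretch of chromosome 3.

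The B12D and early nodulin families also held both directions. The third listed B12D locus, LOC_Os07g17330, went from 22.7 FPKM to 93.3 FPKM (log2 ratio 2.04), while the pair among the 95 was lower. The other listed early nodulin locus, LOC_Os06g46740, went from 0.516 FPKM to 186.9 FPKM (log2 ratio 8.50), and LOC_Os06g05010 from 91.7 FPKM to 2.08 FPKM.

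Transcription and the cell cycle were represented by 5 loci. LOC_Os03g08460, with an AP2 domain, the DNA-binding domain of ethylene response factors, went from 679.1 FPKM to 14.0 FPKM (log2 ratio -5.60). Its neighbours of the same family went the other way: LOC_Os03g08470, 3.05 kb away, from 14.3 FPKM to 87.4 FPKM (log2 ratio 2.61) and LOC_Os03g08490, 21.6 kb away, from 2.02 FPKM to 24.0 FPKM (log2 ratio 3.57). Of 25 listed AP2 loci, 10 were lower and 15 higher. LOC_Os11g39000, a helix-loop-helix protein given the name ILI2 by RefSeq, went from 130.8 FPKM to 0.713 FPKM (log2 ratio -7.52), and 9 of 17 listed helix-loop-helix loci were lower. LOC_Os06g04850, a homeobox leucine zipper protein, went from 126.3 FPKM to 1.71 FPKM (log2 ratio -6.21). LOC_Os04g28120, a response regulator, a type of protein of which some carry the cytokinin signal, went from 71.1 FPKM to 0.897 FPKM (log2 ratio -6.31). The other 2 listed loci found by the words response regulator were higher. The words do not tell which of them act in that signal. LOC_Os09g28580, described only as an expressed protein and given the name KRP6 by RefSeq, went from 317.0 FPKM to 4.42 FPKM (log2 ratio -6.16). KRP proteins are inhibitors of cyclin-dependent kinases.

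Signalling and protein turnover had 6 loci, most of them of low control level, with a median of 27.2 FPKM. The protein kinase LOC_Os03g16260 went from 69.0 FPKM to 0.400 FPKM (log2 ratio -7.43). With LOC_Os07g35740 and LOC_Os09g37890 it made 3 of 131 listed kinases, of which 86 were lower and 45 higher. LOC_Os02g11790, the F-box protein OsFBK4, went from 48.0 FPKM to 0.974 FPKM (log2 ratio -5.62). F-box proteins choose targets for ubiquitin ligases. LOC_Os01g24560, described as fruit bromelain, a papain-type cysteine protease, went from 183.0 FPKM to 2.15 FPKM (log2 ratio -6.41), while 5 of the 8 listed proteases of this kind were higher at day 2. Of 30 listed loci described as SAUR or auxin-related, 15 were lower and 15 higher, and 4 were among the 95. Of 13 described as SAUR, 9 were lower and 4 higher.

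Transport and the cytoskeleton had 4 loci. LOC_Os07g37454, described as a urate anion exchanger, went from 269.1 FPKM to 3.32 FPKM (log2 ratio -6.34). LOC_Os04g40410, similar to NRT3, a protein that works with nitrate transporters in Arabidopsis, went from 40.4 FPKM to 1.25 FPKM (log2 ratio -5.01). LOC_Os07g20340, with a heavy metal-associated domain, went from 22.1 FPKM to 0.388 FPKM (log2 ratio -5.83). LOC_Os12g06660, an actin, which forms the filaments along which vesicles move, went from 175.8 FPKM to 3.20 FPKM (log2 ratio -5.78), and both listed actins were lower. LOC_Os06g03520, with a DUF581 domain, was at 62.9 FPKM in the control and 1.18 FPKM at day 2 (log2 ratio -5.74).

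**Figure D4:**
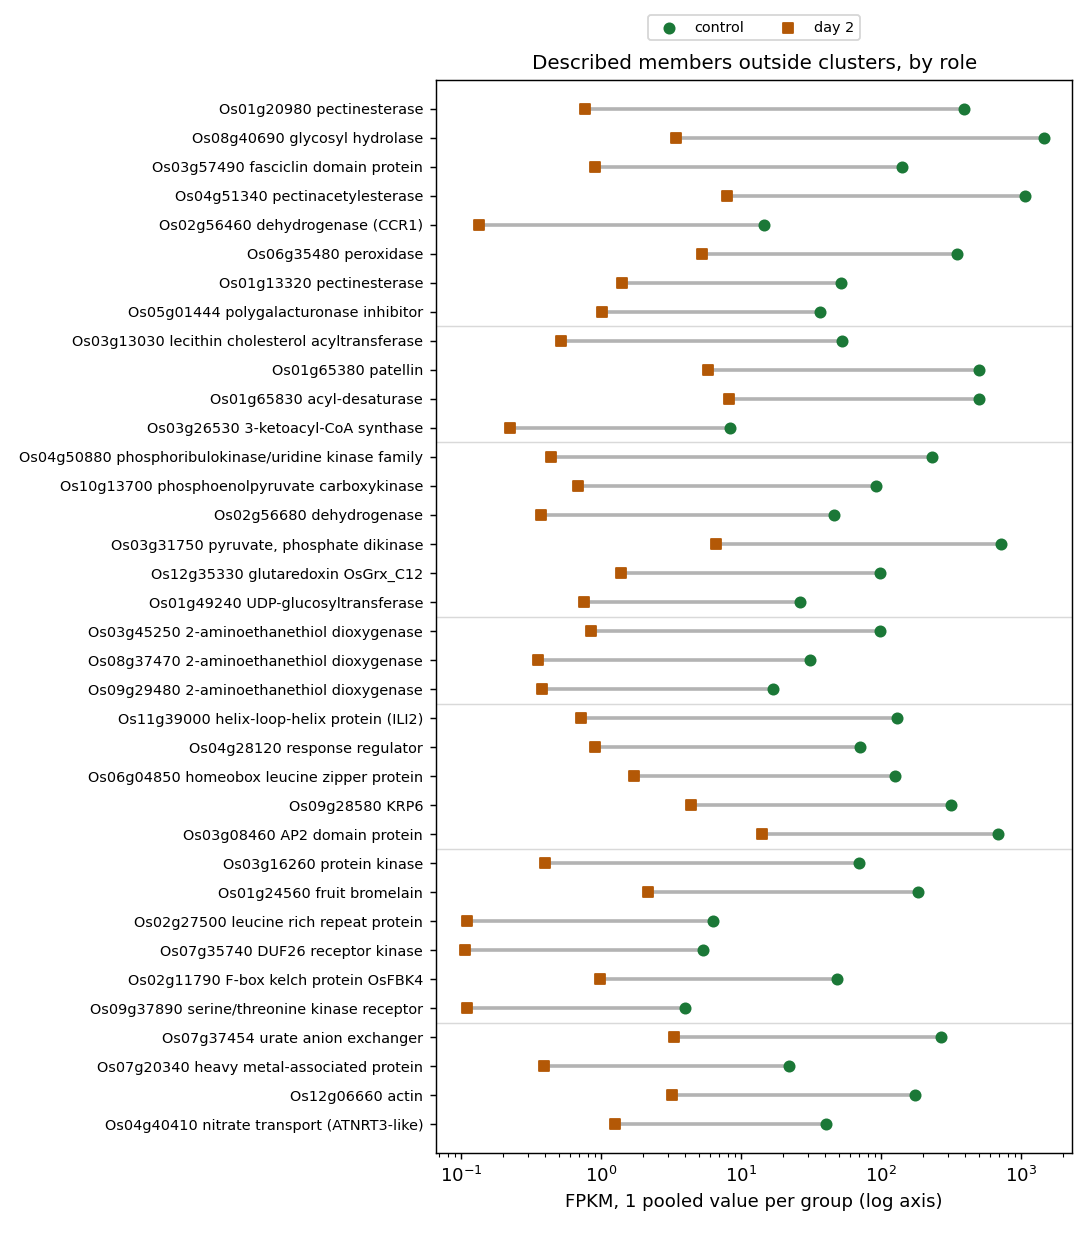
Control (green circles) and day 2 (orange squares) levels in FPKM on a log axis for the loci of the wall, lipid, metabolism, oxygen-related, transcription, signalling and transport groups that lie outside clusters, in that order from the top, 1 row per locus and each value pooled over 2 libraries. Day 2 levels lie between 0.106 FPKM for LOC_Os07g35740 and 14.0 FPKM for LOC_Os03g08460.

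The 30 loci with no description had a median level close to that of the described ones. Their median control level was 94.1 FPKM against 98.7 FPKM for the 65 others, and their median log2 ratio was -6.01 against -6.16. Their largest ratio was that of LOC_Os01g36550. Of the 10 most abundant of the 95 loci, 3 had no description: LOC_Os07g32710, LOC_Os03g02040 (895.3 FPKM to 18.7 FPKM, log2 ratio -5.58) and LOC_Os10g31460 (854.7 FPKM to 19.97 FPKM, log2 ratio -5.42). A second transcript of LOC_Os10g31460 missed the limit, at 26.8 FPKM and 0.893 FPKM (log2 ratio -4.91). LOC_Os04g17660 had 2 transcripts that met the rule, which went from 211.8 FPKM to 3.49 FPKM (log2 ratio -5.92) and from 35.7 FPKM to 0.458 FPKM (log2 ratio -6.29). The 6 loci described only as expressed proteins and without a RefSeq name had control levels from 28.8 FPKM to 187.7 FPKM. Their log2 ratios ran from -7.06 to -5.23.

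The 95 loci were found on all 12 chromosomes. Chromosome 3 held 20 of them and chromosome 11 held 2. As a share of the lower loci of a chromosome, they were most frequent on chromosome 9 (16.1%), chromosome 3 (13.6%) and chromosome 8 (12.1%). The share was 9.04% over all chromosomes and 4.17% on chromosome 11. These shares were counted without the loci left out. The glycosyl hydrolase neighbourhood left out lies on chromosome 11 and held 9 lower loci, of which 6 also met the limit. The low count and share of chromosome 11, and the order of the chromosomes, thus depend on what was left out. On chromosome 9, 7 of the 10 loci were in the EF hand and SAUR clusters, while on chromosome 3, 16 of the 20 were outside clusters. The loci were short: the median distance from start to end was 1528 bases, with a range from 313 to 8846, against 2030.5 bases for the other lower loci and 2366 bases for the 2071 higher ones.

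Markers of green tissue and of submergence moved beside these loci. Of 9 listed loci described as chlorophyll-binding, photosystem or ribulose bisphosphate carboxylase proteins, 8 were higher at day 2, with log2 ratios from 2.21 to 4.58, and 1, LOC_Os12g17600, was lower (log2 ratio -2.13). Pyruvate decarboxylase and alcohol dehydrogenase are enzymes of fermentation under low oxygen. The single listed locus found by a search for either name, LOC_Os03g18220, went from 654.3 FPKM to 63.8 FPKM (log2 ratio -3.36). LOC_Os11g10480, described only as a dehydrogenase and given the name ADH1 by RefSeq, went from 956.7 FPKM to 136.9 FPKM (log2 ratio -2.81). It was not found by that search and was added by its name. Of the 18 listed loci described as dehydrogenases, 4 were lower and 14 higher. Among the higher was LOC_Os11g10520 (0.829 FPKM to 6.97 FPKM, log2 ratio 3.07). The part of these markers in the levels of the 95 loci was not tested.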

How the data were processed

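RNA from coleoptiles of 2 control and 2 day 2 libraries was sequenced. As the study's methods and the submitters' processing notes state, the authors aligned the reads to IRGSP-1.0 with TopHat, assembled transcripts and ran Cuffdiff. The deposited tables hold FPKM pooled over the libraries of a group, 1 value per transcript, for transcripts the authors selected by change. The study gives read totals per library, but the number of fragments behind each value is not in the tables, so its precision cannot be given.

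The tables were joined on transcript ID, and the log2 ratio of the deposited FPKM values was taken with no pseudocount. FPKM of the transcripts of a locus that met the rule was summed. Descriptions came from the study's supplementary tables, of which 1 was held only in part, and RefSeq names from assembly ASM3414082v1, which 54 of the 95 loci matched. No comparison had replicate values, so no test was run. Python 3.11.15, pandas 2.3.3 and NumPy 2.4.6 were used, and the selection and clustering steps were tested on simulated data.

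The loci named were those in clusters, the 10 largest ratios, the 10 highest control levels, the 5 on each side of the limit, the counted families and listed miRNA targets, with other described loci and family neighbours within 100 kb added after their values were seen. The loci, families and lists were chosen with earlier results of these data known. Alternative limits, pseudocounts, filters, scalings and distances were tried.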

Additional observations from a re-analysis of the deposited data

How the results depend on the processing

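The values are pooled, so no replicate could be left out and limma was not run. No paired analysis was possible because each table holds 1 value per group. The count of 95 loci became 177 at a limit of -4 and 51 at -6, where 1 transcript of a locus at the limit sufficed, 58 with a pseudocount of 1, and 53 when a day 2 level of 1 FPKM or more was required. It became 51 with day 2 values multiplied by 2 and 177 with them divided by 2. It stayed within 1.5 times of 95 with a pseudocount of 0.1 (84), a control level of 10 FPKM or more (87), no control filter (95) and values summed per locus (94). The median log2 ratio of -6.10 became -5.91 with a pseudocount of 0.1 and -5.20 with 1, and -5.10 or -7.10 with day 2 values multiplied or divided by 2. With a pseudocount of 1 the log2 ratios of 88 of the 95 loci moved by over 0.1, 58 stayed at -5 or less, and all 95 were at -2 or less (highest -2.17). With a pseudocount of 0.1 the ratios of 51 moved by over 0.1 and 84 stayed at -5 or less. The share of the summed control FPKM was 7.46% in place of 13.4% without the 4 loci of the chromosome 8 cluster, an alternative chosen after seeing the data. The count of 25 clustered loci became 38 at a limit of -4, and was 24 at 20 kb, 30 at 100 kb and 23 with the pair of shared coordinates as 1 locus, also chosen after seeing the data. The number of fragments behind low day 2 values is not known.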
